A study of Homo sapiens with 5 samples.

Results

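The mitochondrial genome transcripts measured here are those of the 37 human genes whose name starts with MT-, namely 13 mRNAs, 2 rRNAs and 22 tRNAs. They were set beside 404 nuclear pseudogenes named after the protein-coding ones (names starting MTND, MTCO, MTATP, MTCYB or MTRNR2, with P and a number at the end). Members were taken by name from the GENCODE v44 annotation, in which they make up 441 of 61220 genes paired with the deposited transcripts. Each of the 441 had 1 transcript, with the same length in the tables and in GENCODE. None of the copies was named after MTRNR2, so all 404 were copies of the 13 mRNA genes. The libraries came from NCI-H1975 and HCC827, which are established human lung adenocarcinoma cell lines. Before mixing, NCI-H1975 RNA was labelled as carrying synthetic spike-in transcripts (sequins) of mix A, and HCC827 RNA as carrying mix B. Poly(A)-selected RNA of both lines was mixed at HCC827 mass fractions of 0, 25, 50, 75 and 100%, with 1 library per ratio from a single RNA preparation of each line. Library names give the NCI-H1975 part first, from 100:0 (NCI-H1975 alone) to 0:100 (HCC827 alone).

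Human mitochondria keep a small circular genome that encodes subunits of respiratory complexes I, III and IV and of ATP synthase, along with the rRNAs and tRNAs needed to translate them. It is transcribed from both strands into long precursors, from which tRNAs are cut out between the other genes, and most of its mRNAs receive a short poly(A) tail. MT-ND6 is the one mRNA of the light strand and is known for lacking such a tail. Pieces of this genome have been inserted into the nuclear chromosomes during evolution, and the copies still resemble their source to different degrees.

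The libraries held from 2932250 to 4058751 assigned reads. Sequin reads fell along the series, with 5475, 4678, 2830, 1269 and 0 from the 100:0 to the 0:100 library. The 0 goes against the label of mix B for HCC827. The mean length of the transcripts to which reads were assigned, members left out, fell from 2681 bases in the 100:0 library to 2305 bases in the 0:100 library. Epithelial markers were abundant, with 998 to 1607 reads of EPCAM and 7125 to 12918 of KRT7 per library. Lung lineage markers were uneven. NKX2-1 had 140 to 348 reads per library and SFTPB 1 to 17, while NAPSA had 7 in 100:0 and 690 in 0:100. PTPRC, the leukocyte marker, and CD3E of T cells had 0 reads in each library, while COL1A1, a fibroblast collagen gene, went from 532 to 19 reads. The lines were mixed as RNA, so cell numbers did not change along the series. The RNA was extracted in bulk, so within a line fewer cells expressing a gene and less RNA per cell cannot be told apart.

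The copy that drew most reads, MTND1P23, is shown beside its source because the sequences are nearly the same. It lies on chromosome 1 from 629062 to 629433 on the plus strand (GRCh38) and is annotated as an unprocessed pseudogene of 372 bases. Of these, 352 aligned with bases 605 to 956 of MT-ND1, the 3′ end of that gene, and 349 were identical. The first 300 of them are given, at chrM:3911-4210 and chr1:629081-629380, and hold each of the 3 differences. The differing bases are in capitals, and counted from the first base of MT-ND1 they were G607A, G742A and A798G, with the mitochondrial base first.
MT-ND1: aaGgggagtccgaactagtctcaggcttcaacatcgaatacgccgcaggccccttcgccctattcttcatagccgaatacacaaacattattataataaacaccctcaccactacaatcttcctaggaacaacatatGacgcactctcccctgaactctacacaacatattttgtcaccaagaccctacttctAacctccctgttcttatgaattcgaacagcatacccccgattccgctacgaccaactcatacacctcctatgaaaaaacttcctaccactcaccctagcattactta
MTND1P23: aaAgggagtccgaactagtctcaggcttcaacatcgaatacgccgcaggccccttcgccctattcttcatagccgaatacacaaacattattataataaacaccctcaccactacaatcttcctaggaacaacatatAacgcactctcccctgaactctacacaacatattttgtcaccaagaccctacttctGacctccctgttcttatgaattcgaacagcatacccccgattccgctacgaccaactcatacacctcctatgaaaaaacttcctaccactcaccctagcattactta

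Among the copies tested, those whose share of the reads on copy and source differed most between the pure libraries as a ratio were 3 copies of MT-CO2 and MT-CO1. For each, the 150 bases of the source gene with most differences are given, with bases that differ or have no partner in capitals. The first pair covers chrM:8054-8203 and chr1:633225-633372 on the plus strand, with 7 differences.
MT-CO2: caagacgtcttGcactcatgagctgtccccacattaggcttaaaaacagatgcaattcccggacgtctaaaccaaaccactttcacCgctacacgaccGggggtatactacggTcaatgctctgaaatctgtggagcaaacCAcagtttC
MTCO2P12: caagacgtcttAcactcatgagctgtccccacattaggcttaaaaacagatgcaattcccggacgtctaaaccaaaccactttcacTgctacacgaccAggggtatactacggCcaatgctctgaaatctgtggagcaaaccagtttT
The next pair covers chrM:7886-8035 and chr5:100053090-100053239, the latter read from the minus strand, with 22 differences.
MT-CO2: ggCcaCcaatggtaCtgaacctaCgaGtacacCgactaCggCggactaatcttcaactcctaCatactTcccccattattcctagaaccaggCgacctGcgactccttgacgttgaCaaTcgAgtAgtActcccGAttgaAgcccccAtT
MTCO2P22: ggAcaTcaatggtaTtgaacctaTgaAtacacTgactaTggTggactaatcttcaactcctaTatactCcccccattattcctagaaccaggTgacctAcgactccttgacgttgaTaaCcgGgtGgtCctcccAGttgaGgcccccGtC
The last pair covers chrM:6927-7076 and chr17:53105842-53105991 on the plus strand, with 11 differences.
MT-CO1: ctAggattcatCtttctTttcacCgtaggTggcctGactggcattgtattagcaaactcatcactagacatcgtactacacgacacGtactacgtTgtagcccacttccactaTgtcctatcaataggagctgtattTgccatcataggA
MTCO1P40: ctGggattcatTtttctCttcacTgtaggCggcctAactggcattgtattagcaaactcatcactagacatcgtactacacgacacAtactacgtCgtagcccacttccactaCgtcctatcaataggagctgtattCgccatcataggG

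Mitochondrial reads made up a larger part of the HCC827 library. The 13 mRNAs took 4.24% of all assigned reads in the 100:0 library and then 4.91%, 5.38%, 5.56% and 5.61% in the 0:100 library. The 2 rRNAs went from 0.945% over 1.47%, 1.81% and 1.98% to 2.28%. The 22 tRNA genes went from 0.451% over 0.668%, 0.809% and 0.852% to 0.964%. Each class ran in order along the series, with the 100:0 library lowest. For all 37 genes together the share rose by a least-squares slope of 3.11 percentage points (p = 0.0167, exact permutation test, two-sided, over 120 orders of the 5 libraries, the smallest p the design allows). Within the mitochondrial reads, mRNAs went from 75.2% (95% Wilson interval 75.0 to 75.4) to 63.4% (63.2 to 63.6). The rRNAs went from 16.8% to 25.7% of them and the tRNA genes from 8.0% to 10.9%. All are shares of poly(A)-selected RNA, and how far each class was captured was not measured. Intervals cover counting error only, since PCR copies were not marked, and each ratio had 1 library.

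The summed reads of each class lay nearer to HCC827 in the mixed libraries than their mass ratio. On the way from the 100:0 to the 0:100 share, the mRNAs had covered 48.6% of the distance at 75:25, 82.7% at 50:50 and 96.0% at 25:75. The rRNAs had covered 39.5%, 64.9% and 78.1%, and the tRNA genes 42.2%, 69.8% and 78.1%. Single genes varied, and some lay below the mass ratio. MT-ND4L was at 35.6%, 44% and 51.1%, and MT-CO1 at 56.6%, 69.3% and 62.0%. MT-CO2 was at 33.7%, 60.3% and 85.1%. For comparison, 521 other genes, 1.2 to 4 times higher in 0:100 by CPM and with 500 reads or more over both pure libraries, had median positions of 31%, 52.6% and 75.7%. The 869 other genes that were lower in 0:100 by as much had medians of 33.5%, 55.6% and 78.7%. The upper quartiles were 40.2%, 62.4% and 88.3% for the higher genes and 43.3%, 64.7% and 89.2% for the lower ones. Of the summed classes, only the mRNAs lay above these at every mixed ratio. Medians and quartiles are of single genes and not sums. The positions were not tested, because no ratio had a second library.

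Along the series, 33 of the 37 mitochondrial genes rose, 2 fell and 2 did not pass the test (edgeR quasi-likelihood slope on the HCC827 fraction, TMM scaling, adjusted p under 0.05 over 13492 genes). Of all genes tested, 45.8% were called, 23.5% rising and 22.3% falling. The median slope was 1.37 for the mitochondrial genes and -0.035 for all genes. A slope gives the log2 change that the fit assigns to the whole way from pure NCI-H1975 to pure HCC827, and ± marks its SE, from these 5 libraries. TMM scaling, which sets the bulk of genes near no change, differs here from scaling by library totals, under which the median slope of all genes was -0.44. Under library totals 26 mitochondrial genes rose, 2 fell and 9 did not pass, where 51.0% of all genes were called, 13.4% rising and 37.6% falling. CPM (reads per 1000000 assigned reads) below are by library totals and slopes are under TMM unless stated.

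The mRNAs of complex I, the NADH dehydrogenase that feeds electrons into the chain, rose in 7 of 7 cases, and in 5 of 7 under library totals. Of all genes, 23.5% rose, and 13.4% under library totals. MT-ND3, encoding a small membrane subunit, had 1142, 1774, 2382, 2564 and 3073 CPM from 100:0 to 0:100. Its values ran in order and its slope of 1.75 ± 0.15 (edgeR quasi-likelihood test, adjusted p = 4.38e-06) was the largest of the 13 mRNAs under TMM. MT-ND4L had 155, 241, 261, 279 and 397 CPM and a slope of 1.56 ± 0.16. It shares 7 bases with MT-ND4 on the same strand. How long reads over both genes were split is uncertain, and so are their separate levels and slopes. MT-ND4, encoding a large proton-pumping subunit, had 5413, 5930, 6196, 6139 and 5748 CPM, with the highest value in the 50:50 library. Its slope was 0.50 ± 0.09 under TMM and 0.09 under library totals, where it did not pass (edgeR quasi-likelihood test, adjusted p = 0.421).

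MT-ND1 and MT-ND2, encoding core membrane subunits, had slopes of 1.37 ± 0.13 and 1.07 ± 0.13. MT-ND1 went from 1810 over 2349, 2822 and 3524 to 3384 CPM, with the peak in the 25:75 library. MT-ND2 went from 2554 over 3300, 3821 and 4165 to 4043, with the same peak. MT-ND5, which encodes the subunit at the far end of the membrane arm, ran in order from 434 to 634 CPM (slope 0.91 ± 0.12). MT-ND6, from the light strand, had 483, 487, 529, 535 and 506 CPM and a slope of 0.52 ± 0.12. Its value in 0:100 lay below those of 50:50 and 25:75, and under library totals its slope was 0.11 and did not pass (edgeR quasi-likelihood test, adjusted p = 0.443).

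The mRNAs of complex IV, the cytochrome c oxidase that reduces oxygen, rose in 3 of 3 cases, with slopes from 0.38 to 1.28. Under library totals 2 of 3 rose. The shares of all genes that rose were 23.5% and 13.4%. MT-CO2, encoding the subunit that takes electrons from cytochrome c, had 6452, 8278, 9715, 11055 and 11863 CPM. It ran in order and had a slope of 1.28 ± 0.09 (edgeR quasi-likelihood test, adjusted p = 2.22e-06). MT-CO1, encoding the catalytic core subunit, had 3276, 3835, 3961, 3889 and 4264 CPM and a slope of 0.72 ± 0.10. MT-CO3, another core subunit, had 14214, 15153, 15558, 14501 and 14171 CPM, so that the pure libraries were nearly level. Its slope was 0.38 ± 0.08 under TMM and turned to -0.030 under library totals, where it did not pass (edgeR quasi-likelihood test, adjusted p = 0.761). Without the 100:0 library its slope was 0.24 and still passed.

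Complex III has a single mitochondrial subunit, cytochrome b, and its gene MT-CYB had 2311, 2565, 2730, 2768 and 2673 CPM. Its slope was 0.62 ± 0.10, and 0.21 under library totals without a call. For ATP synthase, MT-ATP6, encoding a subunit of the proton channel, went from 4091 over 4532, 5065 and 5432 to 5213 CPM (slope 0.79 ± 0.10). MT-ATP8, a small accessory subunit, had 102, 133, 154, 146 and 140, with a slope of 0.80 ± 0.17. These genes overlap by 46 bases on the same strand. How long reads over both were split is uncertain, and so are their separate levels and slopes. MT-ATP8 did not pass under library totals (slope 0.40), and its slope fell to 0.46, still called, without the 100:0 library.

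**Figure D1:**
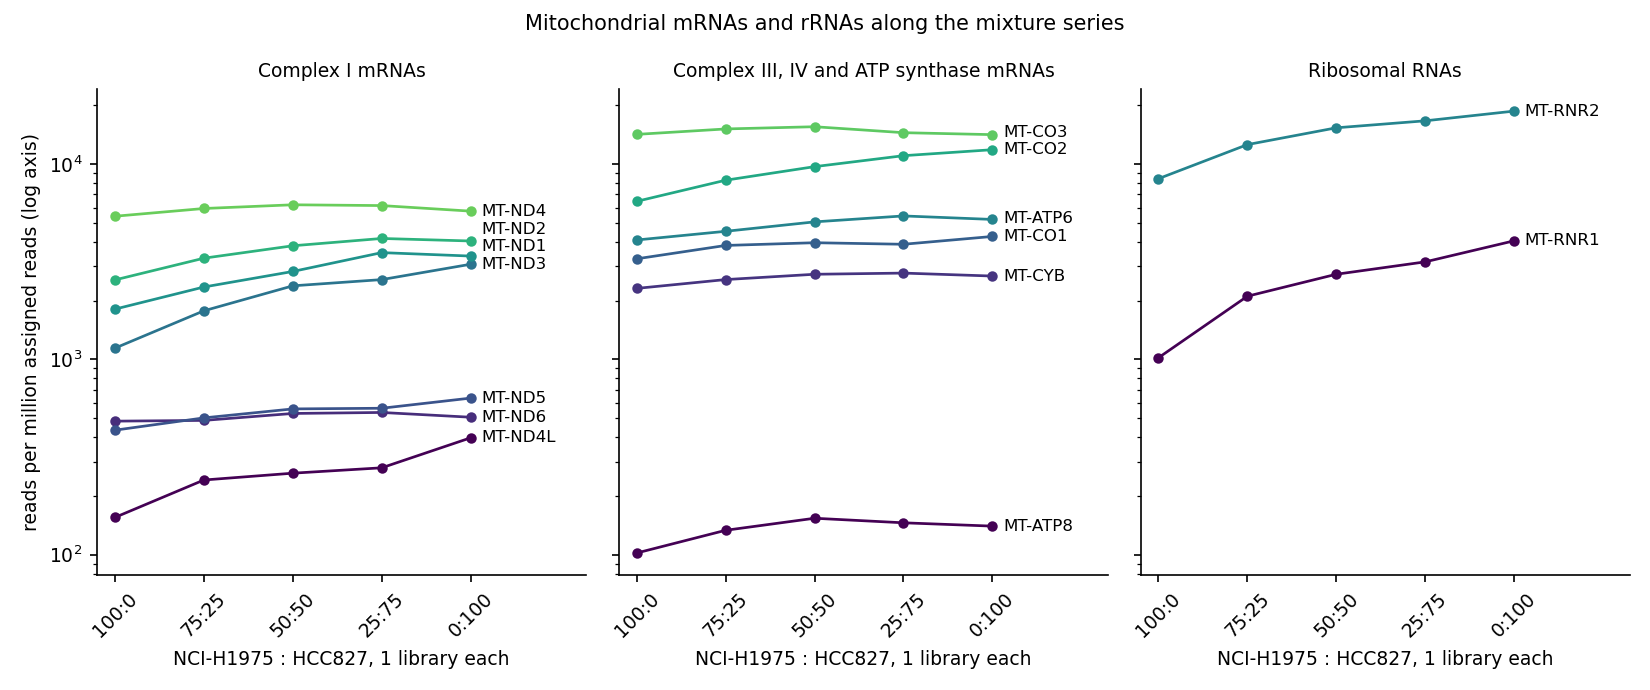
CPM (log axis) of the 13 mitochondrial mRNAs and 2 rRNAs in the 5 libraries, in mixture order, 1 point per library. MT-CO2, MT-ND3, MT-RNR1 and MT-RNR2 rise in order, while MT-CO3 stays between 14171 and 15558.

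Within the mRNA reads the balance shifted. MT-CO3 took 33.5% of mRNA reads in the 100:0 library, then 30.9%, 28.9%, 26.1% and 25.3%. MT-CO2 moved the other way, from 15.2% over 16.9%, 18.1% and 19.9% to 21.1%. MT-ND3 went from 2.69% to 5.48% and MT-ND4 from 12.8% to 10.2%. MT-ATP6 stayed between 9.23% and 9.78%. Per kilobase of transcript, the level of MT-CO3 was 18130 CPM in the 100:0 library, followed by MT-CO2 at 9433, MT-ATP6 at 6007 and MT-RNR2 at 5407. In the 0:100 library the order was MT-CO3 at 18076, MT-CO2 at 17344, MT-RNR2 at 11999 and MT-ND3 at 8881. MT-ND5 was lowest of the 15 in both, at 240 and 350. The counting intervals of MT-ND4L (477 to 573) and MT-ATP8 (440 to 552) overlapped in the 100:0 library, as did those of MT-RNR1 (4173 to 4322) and MT-ND4 (4111 to 4233) in the 0:100 library. The orders per kilobase rest on the division by length, which counts of long reads may not need. By CPM alone MT-ATP8 was lowest of the 15 in both, and MT-RNR2 lay above MT-CO3 in the 0:100 library.

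Both rRNAs rose, MT-RNR1 with a slope above those of all 13 mRNAs and MT-RNR2 above 11 of them. MT-RNR1, the RNA of the small mitochondrial ribosomal subunit, had 1020, 2107, 2731, 3160 and 4052 CPM and a slope of 2.19 ± 0.21 (edgeR quasi-likelihood test, adjusted p = 6.74e-06). MT-RNR2, of the large subunit, had 8430, 12599, 15362, 16680 and 18706 and a slope of 1.48 ± 0.13. Both ran in order and passed under library totals, with slopes of 1.79 and 1.07. MT-RNR2 was the larger part of rRNA reads, going from 89.2% (95% Wilson interval 88.8 to 89.6) in the 100:0 library to 82.2% (81.9 to 82.5) in the 0:100 library. MT-TV, the valine tRNA gene between them, went from 424 to 1982 reads, with a slope of 2.37 ± 0.26.

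The tRNA genes held 127760 reads, of which 79.5% fell on 4 genes. These were MT-TS1 for serine, MT-TQ for glutamine, MT-TE for glutamate and MT-TY for tyrosine, each annotated on the minus strand. The 8 minus-strand tRNA genes together took 88.0% of tRNA reads, and the 14 on the plus strand the rest. Whether counting used the strand is not given in the sources used here, so reads of an RNA from the other strand cannot be told apart from reads of the tRNA. The libraries were poly(A)-purified and size-selected, and reads of longer RNAs that span a tRNA gene cannot be told apart from the tRNA either. Levels and slopes of tRNA genes below are those of all such reads. MT-TS1 adjoins the 3′ end of MT-CO1, on the opposite strand, and the mature MT-CO1 mRNA is known to keep a tail complementary to that tRNA. The 4 genes with most reads are shown first. MT-TP and MT-TS2, with the largest slopes, and MT-TL2 and MT-TG, which fell, were chosen after their values were seen. Each is printed in its own strand, with the anticodon in capitals.
MT-TS1: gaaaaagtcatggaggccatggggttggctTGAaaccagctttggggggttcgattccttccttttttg
MT-TQ: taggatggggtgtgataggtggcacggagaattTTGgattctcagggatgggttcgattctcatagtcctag
MT-TE: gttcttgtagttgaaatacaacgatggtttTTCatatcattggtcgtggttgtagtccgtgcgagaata
MT-TY: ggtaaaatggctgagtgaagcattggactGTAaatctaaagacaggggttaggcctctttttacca
MT-TP: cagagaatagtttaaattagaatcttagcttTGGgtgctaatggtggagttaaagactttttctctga
MT-TS2: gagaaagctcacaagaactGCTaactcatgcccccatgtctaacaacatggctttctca
MT-TL2: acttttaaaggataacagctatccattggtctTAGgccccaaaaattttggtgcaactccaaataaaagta
MT-TG: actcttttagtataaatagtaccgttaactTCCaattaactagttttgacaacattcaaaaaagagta

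Of the 22 tRNA genes, 18 rose, 2 fell and 2 did not pass, with a median slope of 1.70, where 23.5% of all genes rose and 22.3% fell. Under library totals 16 rose, 2 fell and 4 did not pass, where 13.4% of all genes rose and 37.6% fell. MT-TQ (chrM:4329-4400) had 287, 963, 1463, 1729 and 2104 CPM, in order, and a slope of 2.91 ± 0.39 (edgeR quasi-likelihood test, adjusted p = 7.00e-05). MT-TY (chrM:5826-5891) went in order from 266 to 1236 (slope 2.36 ± 0.23). MT-TE (chrM:14674-14742) went from 702 to 981 (slope 0.87 ± 0.12). MT-TS1 (chrM:7446-7514) had 2753, 3079, 3216, 2974 and 2947, a narrow range, with the peak in the 50:50 library. Its slope was 0.46 ± 0.11, and 0.06 without a call under library totals.

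The largest slope was that of MT-TP, the proline tRNA gene (chrM:15956-16023), with 16, 328, 540, 539 and 660 reads. It was 39.1-fold higher in 0:100 than in 100:0 by CPM, and its slope was 3.48 ± 0.60 (edgeR quasi-likelihood test, adjusted p = 5.02e-04). MT-TS2, for serine (chrM:12207-12265), had 56, 446, 650, 659 and 806 reads and a slope of 3.13 ± 0.46. In these genes the 100:0 library stood far below the 75:25 library. Reads of a mixture add up by mass, whereas the fit is a straight line in log2. Slopes of large folds therefore depend on which libraries enter. At 75:25, MT-TP and MT-TS2 had covered 36.2% and 37.6% of the CPM distance between the pure libraries. For other genes 1.2 to 4 times higher in 0:100, the median there was 31% and the upper quartile 40.2%. Without the 100:0 library the slopes were 2.17 for MT-TP, 2.02 for MT-TS2, 1.84 for MT-TQ, 1.69 for MT-TT (2.58 with all libraries), 1.10 for MT-TL1 (1.72 with all) and 0.28 for MT-TS1, and each still passed. MT-TF, with 6 to 31 reads, lost its call there (slope 1.39, edgeR quasi-likelihood test, adjusted p = 0.0547).

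A pair of tRNA genes ran against the rest. MT-TL2, for leucine (chrM:12266-12336), had 50, 52, 36, 22 and 9 reads, or 17.1 to 2.91 CPM, falling in order, with a slope of -1.73 ± 0.39 (edgeR quasi-likelihood test, adjusted p = 0.00291). It lies next to MT-TS2 on the same strand, with no base between them. MT-TG, for glycine (chrM:9991-10058), had 46, 51, 43, 20 and 15 reads and a slope of -1.24 ± 0.36. By DESeq2 (Wald test, adjusted p = 0.0505) and without the 0:100 library (slope -1.08), MT-TG had no call. MT-TD and MT-TR, with 265 and 94 reads in all, had slopes of 0.61 and 0.39 and no call. The sign for MT-TR turned under library totals (slope -0.011).

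**Figure D2:**
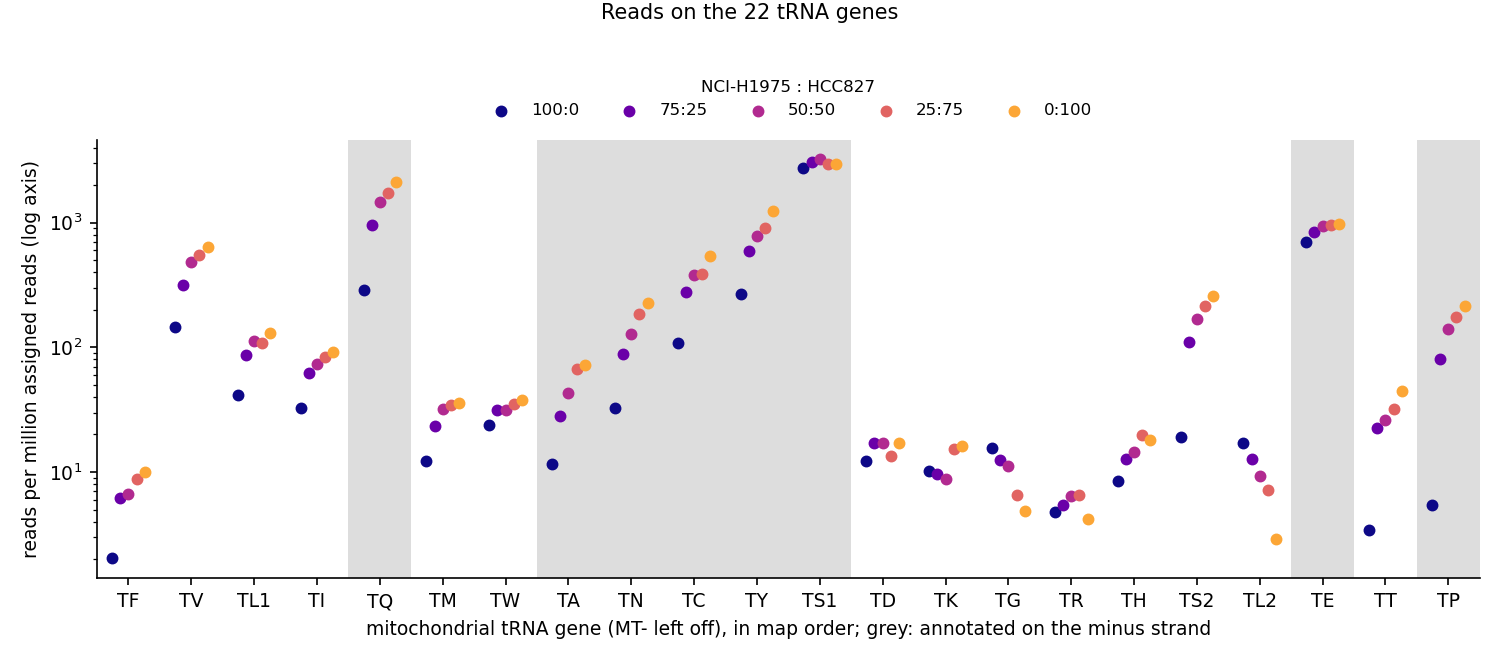
CPM (log axis) on the 22 tRNA genes in map order, 1 point per library, coloured by mixing ratio, with minus-strand genes shaded. MT-TS1 lies between 2753 and 3216 in all 5 libraries, MT-TP runs from 5.46 to 213, and MT-TL2 and MT-TG fall.

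Short transcripts of other genes also had higher slopes than long ones. Among genes that are no member, the median slope was 0.60 for 179 genes with assigned transcripts of 100 to 500 bases, 0.30 for 988 of 500 to 1000 bases and 0.19 for 2900 of 1000 to 2000 bases. It was -0.14 for 9374 longer ones. Under 100 bases, where the tRNA genes lie, there were only 4 other genes. Their median slope was 1.35, and 1 of them rose and 1 fell. The part of transcript length in the slopes of the mitochondrial genes was not tested.

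**Figure D3:**
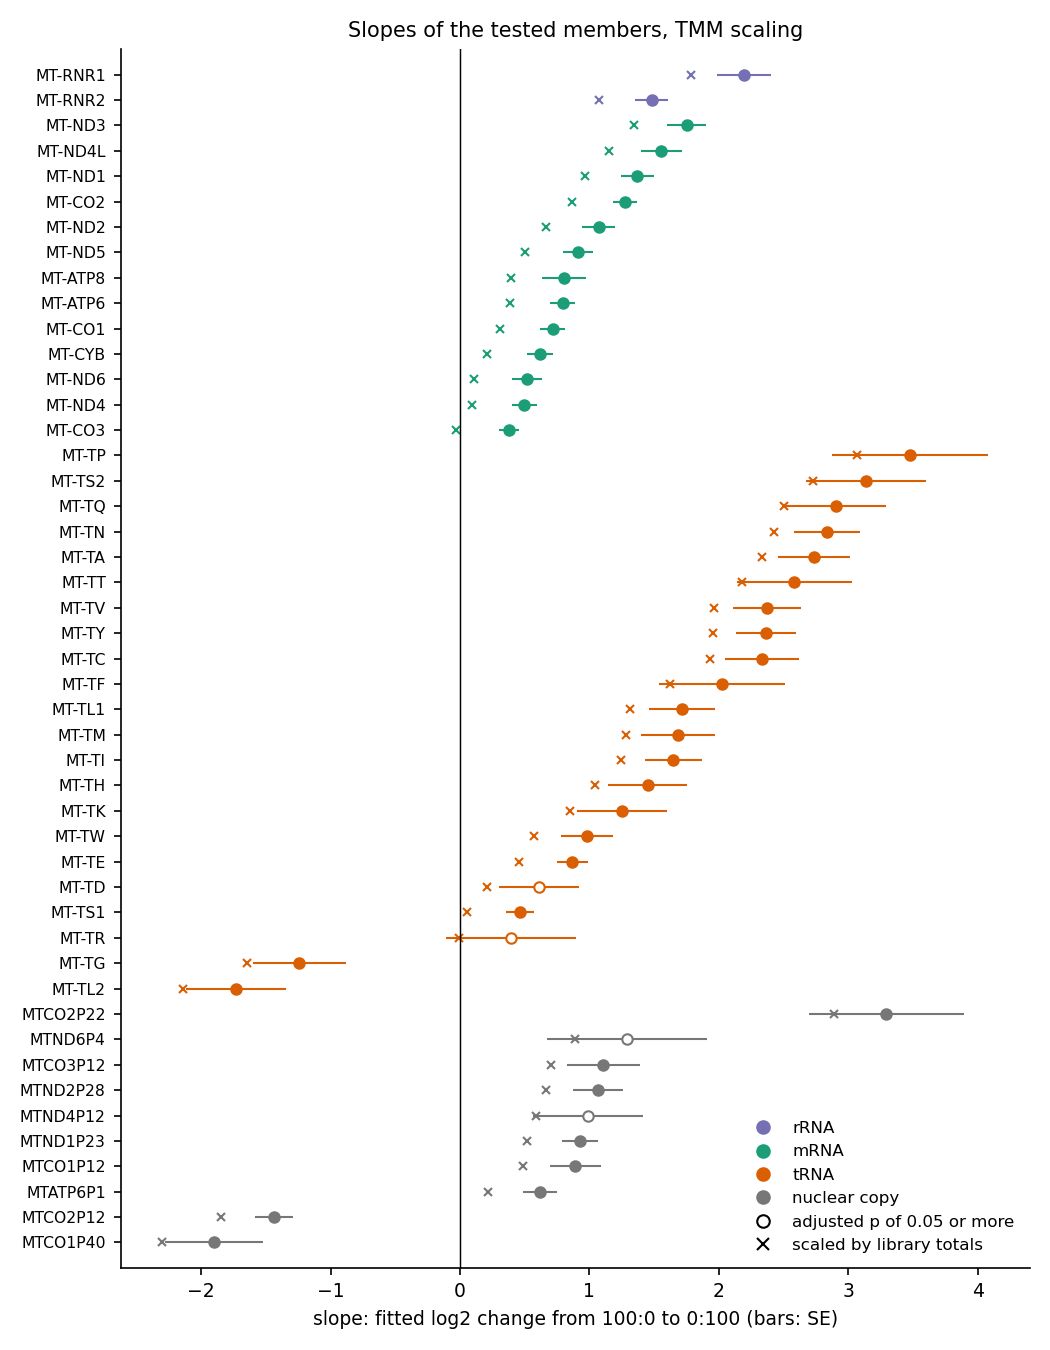
Slopes of the 37 mitochondrial genes and 10 nuclear copies that entered the test, with SE bars, under TMM (circles, filled where the adjusted p was under 0.05) and under library totals (crosses). Of the mRNAs, MT-ND3 is at 1.75 and MT-CO3 at 0.38, and the tRNA genes span -1.73 to 3.48.

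Reads on the nuclear copies were few in kind. Of the 404 copies, 372 had 0 reads in all 5 libraries, 17 had 1 to 9 reads, and 9 had at least 100. A count of 0 allows up to 3 reads. The copies held 50798 reads in all, or 3.93 per 100 mitochondrial reads, and 98.4% of these fell on 7 neighbouring copies on chromosome 1. This block runs from 629062 to 634922 on the plus strand. Its bases from 629081 on aligned with chrM:3911-9753 at 98.5% identity, with 83 mismatches and 3 gap positions in 5844 columns. MTND1P23 alone took 72.8% of the reads on copies. The authors' way of dividing reads between near-identical sequences is not given in the sources used here, so reads listed for a copy can be reads of the mitochondrial gene.

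The classes of copies by read number differed in median identity to the source, and their ranges overlapped. The 9 copies with at least 100 reads had a median identity of 98.2% over the aligned stretch, from 90.2% for MTCO2P22 to 99.1% for MTND1P23. The 6 copies with 10 to 99 reads had a median of 94.0% and ranged from 76.8% to 97.6%. The 17 with 1 to 9 reads had a median of 87.7% and ranged from 67.7% to 95.6%. Of 368 copies with 0 reads and an alignment of at least 100 columns, the median was 74.4% and the highest 94.1%. All 11 copies with an identity of at least 95% had reads. Outside the chromosome 1 block, MTND4P12 (chromosome 5, 134926660 to 134928036) had 119 reads at 95.8%, and MTND5P11, nearby, had 0, 16, 9, 2 and 3 reads at 93.0%. High identity did not come with many reads in each case: MTATP8P1, within the block, had 11 reads at 97.6%, and its source MT-ATP8 had 2317.

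**Figure D4:**
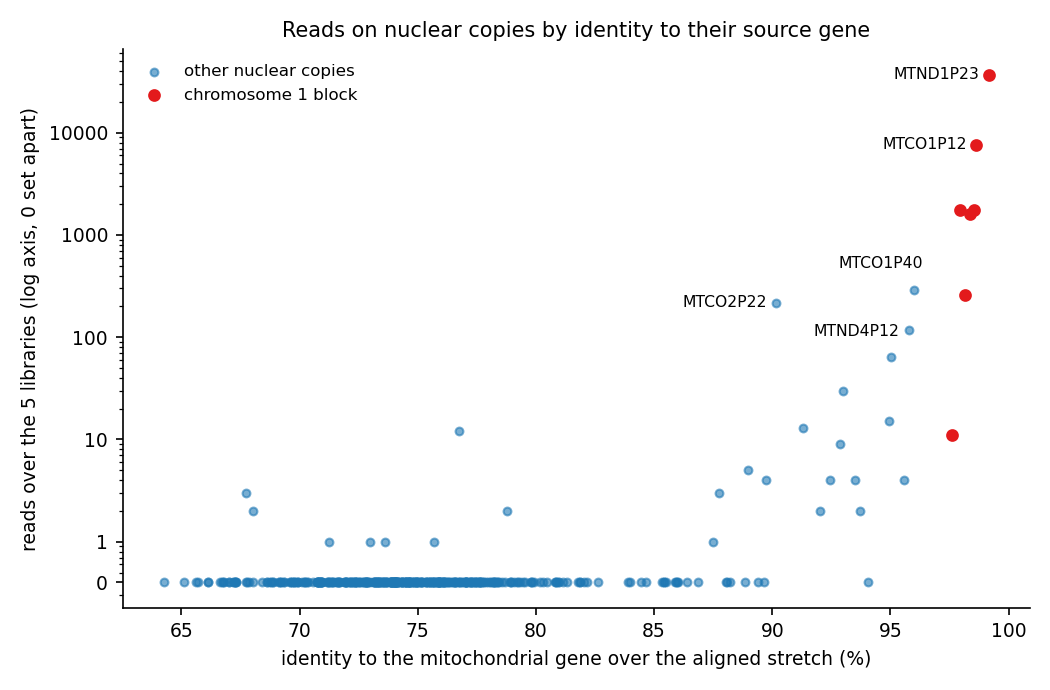
Reads over the 5 libraries (log axis, 0 set apart) against identity to the source gene for the 400 nuclear copies with an alignment of at least 100 columns, 1 point per copy. Copies with over 1000 reads belong to the chromosome 1 block, with an identity of 98.0% to 99.1%, and copies at 0 reads reach 94.1%.

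As a share of all reads, the copies had 0.229%, 0.289%, 0.332%, 0.310% and 0.321% along the series. The slope was 0.0817 percentage points (p = 0.117, exact permutation test, two-sided, 120 orders), so a trend did not hold up against the scatter. Per 100 mitochondrial reads, there were 4.05, 4.11, 4.16, 3.70 and 3.62 reads on copies. The slope of that ratio was -0.511 (p = 0.150, exact permutation test, two-sided). Counted against mRNA reads alone, the slope turned to 0.133 (p = 0.800, exact permutation test, two-sided).

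Of the 404 copies, 10 had enough reads to be tested. Of these 10, 6 rose, 2 fell and 2, MTND4P12 and MTND6P4, did not pass, where 23.5% of all genes rose and 22.3% fell. Under library totals 4 rose, 2 fell and 4 did not pass, where 13.4% of all genes rose and 37.6% fell. MTND1P23 had 4692, 8398, 9320, 7270 and 7304 reads, against 5307, 9535, 10946, 10844 and 10465 on MT-ND1. It took 46.9% (95% Wilson interval 45.9 to 47.9) of the pair in the 100:0 library and 41.1% (40.4 to 41.8) in the 0:100 library. Its slope was 0.93 ± 0.14, and 0.62 without the 100:0 library. Summed with its copies, MT-ND1 had a slope of 1.18 in place of 1.37. MTCO1P12 took 8.68% of its pair with MT-CO1 in 100:0, 11.7% at 50:50 and 10.3% in 0:100. Its slope was 0.89 ± 0.19, and 0.45 without the 100:0 library. MTATP6P1 took between 1.86% and 2.28% of its pair with MT-ATP6, and MTND2P28 between 2.03% and 2.89% of its pair with MT-ND2. MTATP6P1 and MTCO3P12 rose with slopes of 0.62 and 1.11, but had no call under library totals. MTCO3P12 also lost its call without the 0:100 library (slope 1.13, edgeR quasi-likelihood test, adjusted p = 0.0590).

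MTCO2P12 and MTCO1P40 moved against their source, while MTCO2P22 rose with MT-CO2, as MTCO1P12 above did with MT-CO1. MTCO2P12, within the chromosome 1 block, had 485, 525, 398, 202 and 141 reads, or 165, 129, 103, 65.7 and 45.6 CPM. It fell in order with a slope of -1.44 ± 0.15 (edgeR quasi-likelihood test, adjusted p = 1.30e-05), while MT-CO2 rose. Its share of the pair went from 2.50% (95% Wilson interval 2.29 to 2.73) to 0.383% (0.325 to 0.451). MTCO2P22, on chromosome 5 from 100052859 to 100053539, had 1, 34, 59, 36 and 87 reads. Its slope was 3.30 ± 0.60 (edgeR quasi-likelihood test, adjusted p = 6.68e-04), and its share of the pair was 0.00529% (0.000933 to 0.0299) in 100:0 and 0.237% (0.192 to 0.292) in 0:100. MTCO1P40, on chromosome 17 from 53105734 to 53106358, had 74, 108, 66, 27 and 15 reads and a slope of -1.90 ± 0.38. Its share of the pair with MT-CO1 went from 0.764% (0.609 to 0.958) to 0.114% (0.0689 to 0.187), while MT-CO1 rose. MTCO2P12, MTCO2P22 and MTCO1P40 kept their call and direction under library totals.

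**Figure D5:**
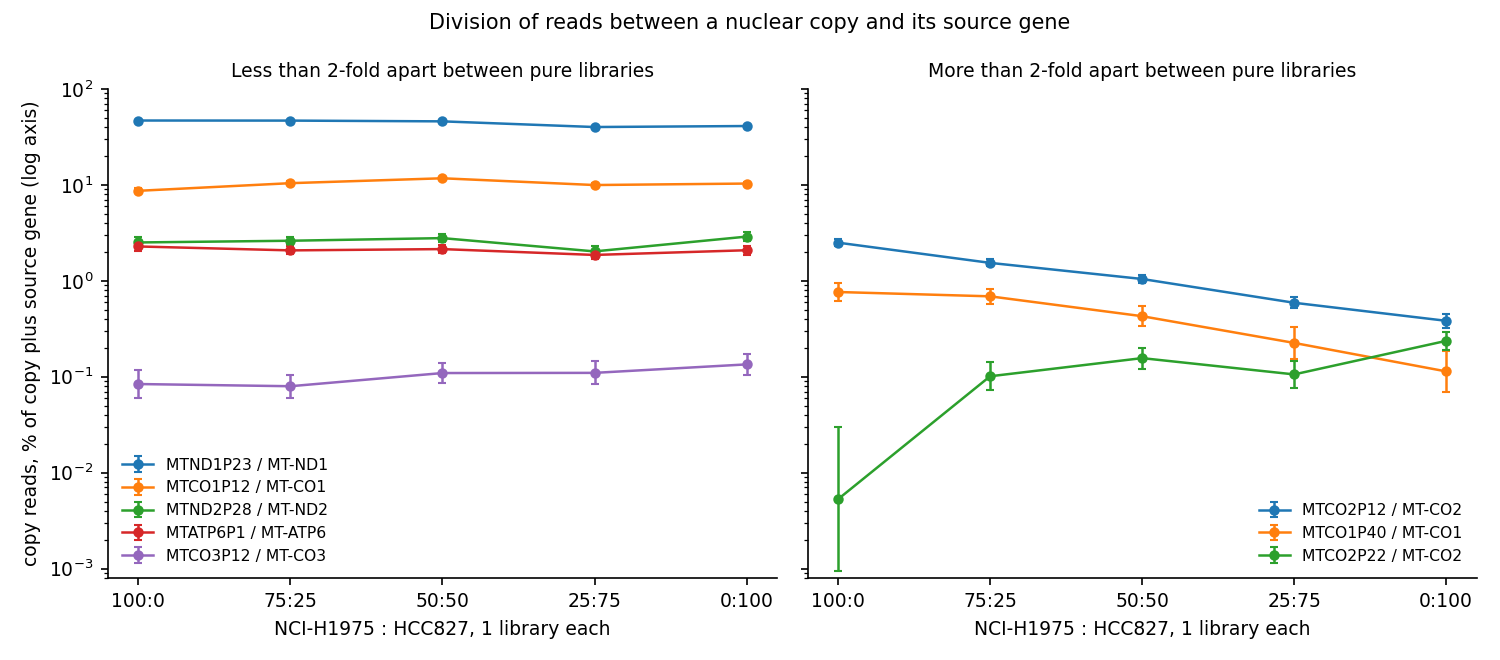
Reads of a nuclear copy as a percentage of the reads on the copy and its source gene together (log axis), with 95% Wilson intervals, in the 5 libraries. MTCO2P12 and MTCO1P40 fall from 2.50% and 0.764% in 100:0 to 0.383% and 0.114% in 0:100, while MTND1P23 stays between 40.1% and 46.9%.

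The nuclear genes that serve the mitochondrial genome were then compared from a list of 38 genes for its replication, transcription, RNA processing and decay and their regulators. Of 37 tested, 7 rose, 7 fell and 23 did not pass, with a median slope of -0.0023. Over all genes 45.8% were called. The balance depended on the scaling, as it did over all genes. Under library totals, where 13.4% of all genes rose and 37.6% fell, 2 genes of the list rose and 15 fell. Without the 0:100 library, 7 of them passed, where 30.5% of all genes did. ESRRA, a nuclear receptor that acts on energy metabolism genes, went from 94 to 172 reads (slope 1.09 ± 0.18). ELAC2, which cuts tRNA precursors at their 3′ end, had 232, 336, 359, 305 and 332 reads and a slope of 0.86 ± 0.13 (edgeR quasi-likelihood test, adjusted p = 1.48e-04). TOP1MT, the mitochondrial topoisomerase, and MTERF4, of the MTERF family, had slopes of 0.84 and 0.82. TOP1MT did not pass without the 0:100 library (slope 0.89), MTERF4 not without the 75:25 library (0.69), and neither under library totals.

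Among those that fell, MTERF3 went from 43 to 7 reads (slope -1.59 ± 0.45), and lost its call without the 0:100 library (slope -0.95). MTERF1 went from 52 to 18 reads (slope -1.13 ± 0.38), and did not pass without the 100:0 library (slope -0.53), without the 0:100 library or under DESeq2. POLG, the catalytic subunit of the mitochondrial DNA polymerase, went from 89 to 36 reads (slope -1.02 ± 0.25). REXO2, an RNA exonuclease, went from 286 to 116 reads (slope -0.93 ± 0.17). POLRMT, the mitochondrial RNA polymerase, and LRPPRC, which stabilises mitochondrial mRNAs, had slopes of 0.19 and -0.26 and did not pass. Under library totals the slope of POLRMT turned to -0.22 without a call, and that of LRPPRC was -0.67 with one (edgeR quasi-likelihood test, adjusted p = 6.15e-04).

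The nuclear subunits of the same complexes were taken from a list of 48. Of these, 27 rose, 5 fell and 16 did not pass, with a median slope of 0.48, against 0.80 for the 13 mitochondrial mRNAs and -0.035 for all genes. Over all genes 23.5% rose and 22.3% fell. Under library totals 15 of the 48 rose and 10 fell, where 13.4% of all genes rose and 37.6% fell. NDUFA10 of complex I went from 52.2 to 108 CPM (slope 1.5 ± 0.14), and UQCRH of complex III from 250.0 to 506 (1.44 ± 0.13). COX5B and COX6B1 of complex IV had slopes of 1.35 and 1.31. COX6C, of the same complex, fell from 709 to 195 CPM (slope -1.33 ± 0.14, edgeR quasi-likelihood test, adjusted p = 1.25e-05). NDUFB3, UQCRB and ATP5F1C fell with slopes of -0.79, -0.74 and -0.61, the last without a call when the 0:100 library was left out (slope -0.53).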

How the data were processed

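Long-read cDNA sequencing of 5 libraries gave 1 table each, with a transcript identifier, a length and an estimated count of reads, deposited by the authors without scaling. The poly(A)-purified RNA was amplified by PCR and size-selected before nanopore sequencing, per the labels' protocols, steps that bear on short RNAs such as tRNAs. Per the submitters' processing notes, minimap2 2.24, Salmon 1.9.0 and the GRCh38 build were used, with no role given. The 2 values that were not whole were rounded, and 161 identifiers listed again were summed. Identifiers were paired with GENCODE v44 genes (98.6% of human reads), which may differ from the authors' release. Library totals include all assigned reads. Members and gene lists were chosen with earlier results of these data known.

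Slopes on the HCC827 mass fraction were tested with edgeR 4.0.16 (glmQLFit and glmQLFTest, R 4.3.3) on gene sums with TMM scaling. Genes that reached 10 reads in fewer than 2 libraries were left out. P-values were Benjamini-Hochberg adjusted over 13492 genes at 0.05. No ratio was replicated, so p-values measure scatter about the trend of these libraries, not between cultures. The fit was tested on simulated data. Alternatives were DESeq2 1.42.0, other scalings and filters, summing copies with their source and leaving out each library. Copies were aligned locally to their source with Biopython 1.88 (match 2, mismatch -3, gap open -5, extension -2) and the block with blastn 2.17.0. Sequences are from the GENCODE transcripts, which matched GRCh38 for all 66 members compared. Named were all mRNA and rRNA genes, the 4 tRNA genes of most reads, copies with at least 100 reads, and up to 4 called genes per direction from each list. Other tRNA genes and copies named, POLRMT and LRPPRC were chosen after their values were seen.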

Additional observations from a re-analysis of the deposited data

How the results depend on the processing

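No paired analysis was possible because each ratio had a single library and the labels number no replicates across ratios. Over the alternatives run, the slopes of the 47 members tested kept direction and side of the threshold 488 times, lost a call with the same sign 13 times and changed sign 2 times. The reversals were MT-CO3 (-0.030), which also lost its call, and MT-TR (-0.011), both under library totals. For the ratio of copy to mitochondrial reads, the slope turned to 0.133 when only mRNA genes were counted. Over all settings the number of mitochondrial genes called ran from 28 to 35 and that of copies from 6 to 9, while 23.8% to 51.0% of all genes were called. Fits that each left out 1 library gave 4067 to 5860 genes in all and 7 to 13 of the machinery list, with the fewest without 0:100, where the cause was not tested. The mitochondrial share then had slopes from 2.32 to 3.68 points. Its exact permutation p over 24 orders was 0.0417 without 75:25 and 0.0833 without each other library. The shares ran in order in each case, and 4 libraries cannot give a p below 0.0417 by this exact test, so these values say nothing about stability. Copies and tRNA genes with fewer than 100 reads are limited by depth.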
